A study of Fukomys damarensis with 16 samples.

Results

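In the liver and the ovary of a breeding female Damaraland mole-rat, 148 genes stood at least 2-fold above the other libraries of the same tissue. The Damaraland mole-rat, Fukomys damarensis, is a burrowing African rodent. The genes were picked on ratios of RPKM + 1 (RPKM is reads scaled to the length of the gene model and to the size of the library). The breeding female liver had to be at least 2-fold above each of the other 3 livers, and the breeding female ovary at least 2-fold above the non-breeding ovary. A gene also needed 1 RPKM or more in both breeding female libraries. Of the 21082 genes in the table, 148 (0.702%) met all of this. The rule used the 4 liver and 2 ovary libraries, so values there are a description. Kidney, brain and testis, with 10 libraries, were not used by it.

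Each library is a class and a tissue without a replicate. Kidney, liver and brain libraries came from a breeding female, a non-breeding female, a breeding male and a non-breeding male. Each female class also has an ovary library, and each male class a testis library. The labels put the non-breeding females at 3 years and the non-breeding males at 5 years of age and give none for the breeders, so that an effect of age and one of breeding cannot be told apart. The brain libraries are labelled frontal brain, except that of the non-breeding male, labelled brain. All are poly(A) RNA without any named treatment or altered gene. Which libraries come from the same animal, and how many animals a library holds, is not stated in the labels. Each group is thus a model of its class through 1 library, and the rule rests on a single breeding female liver and a single breeding female ovary.

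In mole-rat colonies of this species breeding is restricted to few animals, and non-breeding females normally do not ovulate while they live with the breeding female. The mammalian ovary makes oocytes and steroid hormones. The liver makes most plasma proteins and responds to steroid hormones, and its resident and passing immune cells contribute RNA to a bulk library. In bulk samples more cells of a type and more RNA per cell cannot be told apart. The identifiers of the table are not paired with gene names (0 of 21082 matched the RefSeq table), so no role is given to any gene, and the labelled tissues could not be checked against marker genes. As a check on labels, log2 values of all genes in the breeding female liver correlated at 0.964 to 0.971 (Pearson) with the other livers and at most 0.825 with a library of another tissue. The breeding female ovary correlated at 0.973 with the other ovary and at most 0.837 with another tissue.

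The 4 livers held 23857020 to 27593857 reads on genes and the other libraries 15393003 to 26730187. Reads were recovered from the RPKM values. What the divisor of an RPKM counts is not stated, and reads on genes came to 1.55 to 1.97 of it in liver, with the breeding female liver lowest. In the other tissues the ratio was 0.665 to 0.945. Scaling every library to its reads on genes therefore raises the breeding female liver relative to the other livers, and the rule then found 171 genes, 144 of them among the 148.

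In liver the 148 genes had a median of 43.1 RPKM in the breeding female. The medians were 1.25 RPKM in the non-breeding female, 2.99 in the breeding male and 2.79 in the non-breeding male. In ovary the median was 4.69 RPKM in the breeding female and 0.303 in the non-breeding female. Levels were spread widely, from 1.35 to 15772 RPKM in the breeding female liver and from 1.02 to 1181 in the breeding female ovary. In the non-breeding female 12 of the genes had no read in liver and 54 none in ovary.

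**Figure D1:**
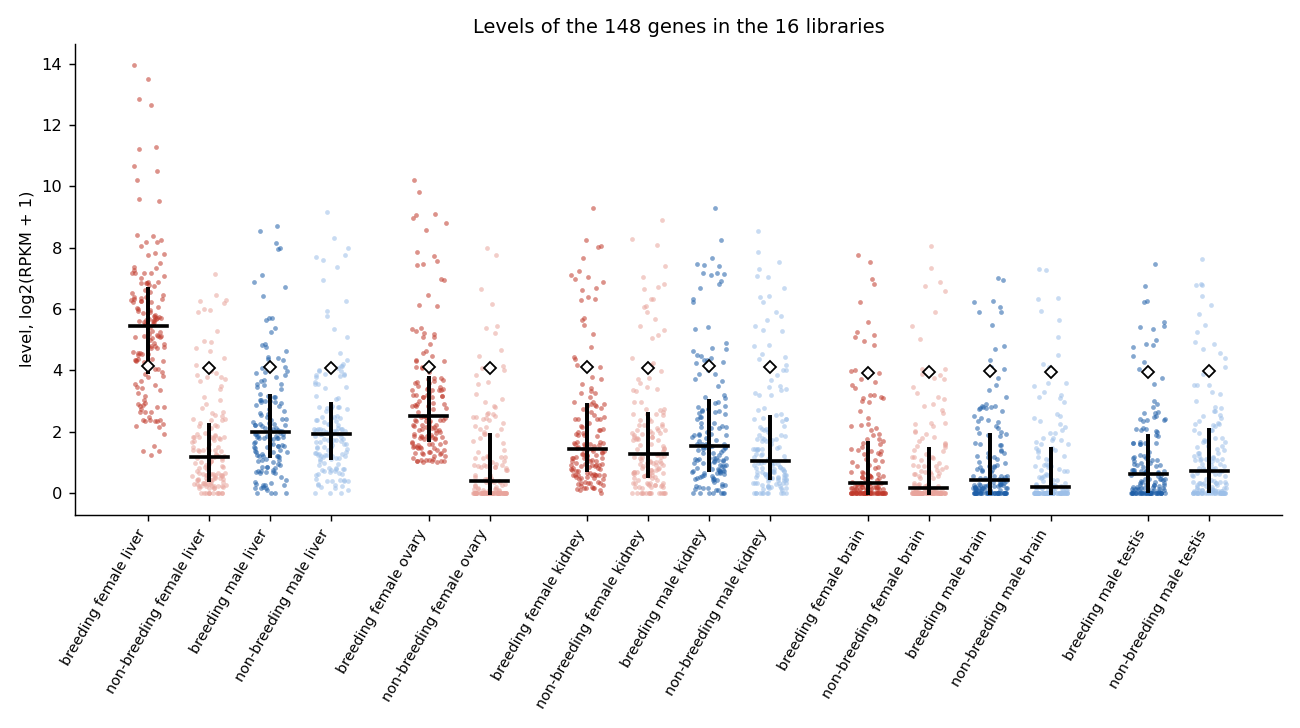
Levels of the 148 genes as log2(RPKM + 1) in the 16 libraries, grouped by tissue and coloured by class. Points are genes, the horizontal bar is their median, the vertical bar spans the quartiles, and the white diamond is the median of the 12116 genes at 1 RPKM or more in both breeding female libraries. The median of the 148 genes lies above the diamond in the breeding female liver and below it in each of the other libraries.

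Together the 148 genes took 2.90% of the reads on genes in the breeding female liver. They took 0.0526% in the non-breeding female liver, 0.118% in the breeding male liver and 0.128% in the non-breeding male liver. In ovary they took 0.695% in the breeding female and 0.110% in the non-breeding female. The 4 genes with the most reads held 66.6% of the 692692 reads that fell on the 148 in the breeding female liver, and the 20 with the most held 91.3%. The total in liver is thus mostly a few very abundant transcripts, while the quartiles of the list were 14.4 and 99.2 RPKM.

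The breeding female liver exceeded the non-breeding female liver by a median of 15.2-fold over the 148 genes, the breeding male liver by 8.55-fold and the non-breeding male liver by 8.81-fold. The breeding ovary exceeded the non-breeding ovary by a median of 3.00-fold. In liver the ratios to the non-breeding female reached 319.7. All 4 ratios were at least 3-fold for 64 genes, at least 5-fold for 29 and at least 10-fold for 14. At the edge of the rule, the smallest of the 4 ratios was 2.001, 2.003 and 2.007 for the last genes inside it. For the nearest genes outside it was 1.979, 1.982 and a value under 2 that rounds to 2.0. These ratios chose the genes and are not tested.

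Among the 12116 genes at 1 RPKM or more in both breeding female libraries, called eligible here, 490 met the liver part of the rule and 611 (5.04%) the ovary part. The share of eligible genes 2-fold or more higher in the breeding female was 7% against the non-breeding female liver, 6.36% against the breeding male liver and 7.3% against the non-breeding male liver. The 148 genes were 30.2% of the liver list and 24.2% of the ovary list. Of the eligible genes 43 were at least 2-fold lower in the breeding female liver than in each of the other 3 livers, and 178 in the breeding ovary. The liver part was met by 7 that were 2-fold or more lower in the breeding ovary, and 2 were at least 2-fold lower in all 4 comparisons. Asking for 1 RPKM or more in both breeding female libraries drops genes that are low in the breeder. These counts can therefore not be set against the 148.

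**Figure D2:**
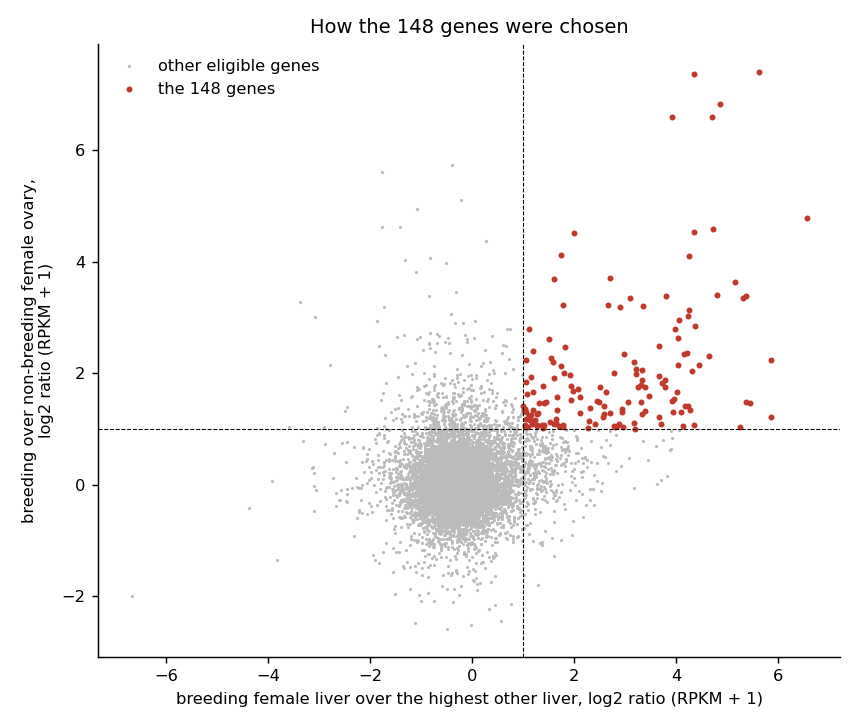
Each point is an eligible gene. The horizontal axis is the log2 ratio (RPKM + 1) of the breeding female liver to the highest of the other 3 livers, and the vertical axis is that of the breeding to the non-breeding ovary. The 148 genes fill the upper right corner beyond the dashed 2-fold lines by construction, and the highest ovary ratio among them is 169.9-fold.

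The 2 genes whose smallest ratio was largest were DMR_07981 and DMR_07615. DMR_07981, with a coding length of 1158 bases, stood at 15772 RPKM in the breeding female liver, 62.8 in the non-breeding female liver, 285.3 in the breeding male liver and 321.6 in the non-breeding male liver. Its ovary levels were 1181 RPKM in the breeder and 5.95 in the non-breeder. With 280408 reads it was the most abundant of the 148 genes in the breeding female liver.

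DMR_07615, with a coding length of 378 bases, stood at 7357 RPKM in the breeding female liver, 75.1 in the non-breeding female liver, 253.2 in the breeding male liver and 217.4 in the non-breeding male liver. Its ovary levels were 505.1 RPKM in the breeder and 3.44 in the non-breeder. In both genes the breeding female library stood far above the other 3 livers, and the non-breeding female liver was the lowest of the 4.

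The other 3 livers were not equal. In the non-breeding female liver 60 of the 148 genes (40.5%) were at least 2-fold lower than in the breeding male liver, and none was 2-fold higher. The share of eligible genes at least 2-fold lower in this pair was 4.27%. Against the non-breeding male liver, 56 genes (37.8%) were at least 2-fold lower in the non-breeding female, against 2.68% of eligible genes, and 4 (2.7%) were higher, against 2.43%. In the breeding male liver 13 of the 148 genes (8.78%) were at least 2-fold higher than in the non-breeding male liver, against 2.13% of eligible genes, and 5 (3.38%) were lower, against 1.58%. The median log2 ratio of this pair was near 0. These libraries were part of the rule, so the counts are not tested.

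Outside liver and ovary the 148 genes were mostly low. In kidney their medians were 1.70 RPKM in the breeding female and 1.40 in the non-breeding female, and 1.93 in the breeding male and 1.07 in the non-breeding male. Eligible genes had medians of 15.8 to 16.6 RPKM in the same libraries. In brain the medians were 0.256 RPKM in the breeding female and 0.112 in the non-breeding female, and 0.331 in the breeding male and 0.150 in the non-breeding male. In testis they were 0.530 RPKM in the breeding male and 0.662 in the non-breeding male. The order was thus kidney, then testis, then brain.

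Kidney libraries had 75 to 98 of the 148 genes at 1 RPKM or more, testis libraries 55 and 64, and brain libraries 44 to 52. Of the eligible genes 94.1% to 96.2% reached that level in each of these 10 libraries. The mean level was highest in kidney for 106 of the 148 genes (71.6%), in testis for 22 and in brain for 20. Among eligible genes kidney was highest for 38.2%, testis for 32.2% and brain for 29.5%. These tissue orders use the deposited scaling.

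The 148 genes fell into groups by their level in these 10 libraries. At 1 RPKM or more in every 1 of the 10 were 24 genes (16.2%), against 86.9% of eligible genes. At 1 RPKM or more in at least 1 kidney library and in no brain or testis library were 50 genes (33.8%), against 1.09% of eligible genes. Under 1 RPKM in all 10 were 18 genes (12.2%), against 0.446% of eligible genes. The remaining 56 reached 1 RPKM in some other combination. The groups were drawn after levels had been seen and are a description.

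The genes of the kidney-only group had the highest median in the breeding female liver, 74.2 RPKM, with 0.515 in the non-breeding female liver, 3.21 in the breeding male liver and 3.06 in the non-breeding male liver. In ovary their median was 3.61 RPKM in the breeding female and 0 in the non-breeding female. In kidney it was 1.40 RPKM in the breeding female and 1.06 in the non-breeding female, and 1.81 in the breeding male and 0.747 in the non-breeding male. Their kidney levels were thus low and close to the 1 RPKM limit that defines the group.

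The 24 genes at 1 RPKM or more everywhere had a median of 32.5 RPKM in the breeding female liver and 6.26 in the non-breeding female liver. In ovary it was 17.5 RPKM in the breeding female and 5.57 in the non-breeding female. In kidney it was 22.9 RPKM in the breeding female and 13.5 in the non-breeding female. The most abundant of them stood at 11480 RPKM in the breeding female liver and 904 in the breeding ovary, and at 2.61 RPKM in the breeding testis and 2.32 in the non-breeding testis. In this gene the kidney levels were 301 RPKM in the breeding female and 270 in the non-breeding female.

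The 18 genes under 1 RPKM in all 10 libraries had a median of 26.7 RPKM in the breeding female liver and 0.263 in the non-breeding female liver. The most abundant of them stood at 144 RPKM in the breeding female liver, at 0 in the non-breeding female liver, at 0.805 in the breeding male liver and at 1.53 in the non-breeding male liver. In ovary it stood at 3.72 RPKM in the breeding female and 0 in the non-breeding female.

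The genes were short. Their median coding length was 577.5 bases (quartiles 378 and 1063.5), against 1338 bases (783 and 2247.75) for eligible genes, and 52 of them (35.1%) had 450 bases or fewer, against 9.37% of eligible genes. Of genes that met the liver part of the rule alone 10.2% were that short, and of genes that met the ovary part alone 15.3%. The rule did not use length, but RPKM of short genes rest on fewer reads, and the part of low read numbers in this share was not tested. In the breeding female liver the 148 genes had a median of 424 reads. The short ones had a median of 54.0 RPKM there and the longer ones 33.7.

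**Figure D3:**
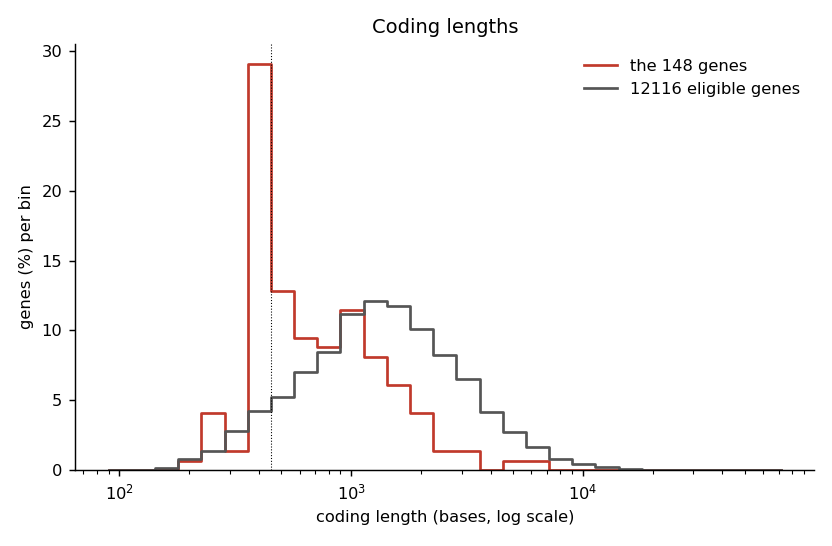
Coding lengths (bases, log scale) of the 148 genes and of the 12116 eligible genes, as the percentage of each set per bin. The dotted line marks 450 bases, and 35.1% of the 148 genes against 9.37% of eligible genes lie at or below it.

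Many of the genes had neighbouring identifier numbers. Another of the 148 lay within 10 numbers for 82 of them (55.4%), and 53 (35.8%) had another at the very next number. Among the 342 genes that met the liver part of the rule alone 38.9% had another of their list within 10 numbers and 12% at the very next number. Among the 463 that met the ovary part alone these shares were 40.4% and 12.7%, although both lists are longer than that of the 148. Joining neighbours within 10 numbers gave 13 runs of 3 or more, which held 66 of the 148 genes. Whether identifier numbers follow the order of genes along the genome is not stated.

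The longest run held 11 of the 15 genes of the table in its span, with coding lengths from 366 to 1248 bases. Its median was 109 RPKM in the breeding female liver, 0.544 in the non-breeding female liver, 6.78 in the breeding male liver and 2.63 in the non-breeding male liver. In ovary it was 9.45 RPKM in the breeding female and 0.107 in the non-breeding female. The next run held 9 of 10 genes in its span, all at most 723 bases long, with 52.9 RPKM in the breeding female liver and 0.501 in the non-breeding female liver. All 11 and all 9 of the eligible genes in these spans were among the 148.

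A run of 4 genes, to which DMR_07981 belongs, had the highest levels. In the breeding female liver its genes stood between 288 and 15772 RPKM, against 12.1 to 78.3 in the non-breeding female liver, 41.1 to 285.3 in the breeding male liver and 3.28 to 321.6 in the non-breeding male liver. The runs and the genes outside them overlapped in level, with medians in the breeding female liver of 76.5 RPKM for the 66 genes in runs and 20.9 for the other 82. In the non-breeding ovary the medians were 0 RPKM for the genes in runs and 0.947 for the others.

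Genes with near-identical copies can share reads. A pair of the 148 genes, both 363 bases long, had equal read numbers in 5 of the 6 libraries in which both were read, and 58 and 65 reads in the breeding female liver. Their values are uncertain as separate measurements.

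Across the 148 genes the order of levels in the breeding female liver was followed in the breeding male liver (Spearman's rho 0.727) and the non-breeding male liver (0.705), and less in the non-breeding female liver (0.373). With the breeding ovary rho was 0.363. The breeding ovary itself was followed by the non-breeding ovary (0.770) and by the breeding female kidney (0.712). These are correlations across genes that share libraries and were chosen on 6 of them, and they carry no test.

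Libraries the rule did not use allow breeders to be set against non-breeders in kidney and brain for both sexes and in testis for males, with 1 library a group. In kidney 19 of the 148 genes (12.8%) were 2-fold or more higher in the breeding female, against 4.12% of eligible genes. At the same time 9 (6.08%) were 2-fold or more lower, against 3.57%. Of the 19 higher genes 10 were among the 66 in runs of neighbouring identifiers and 9 among the 82 outside runs. The 9 lower genes were all in runs. Of genes that met the ovary part of the rule alone 13.6% were higher, a share near that of the 148, and 4.32% lower. Of those that met the liver part alone 6.43% were higher and 1.46% lower. The median log2 ratio was 0.25 for the 148, 0.24 for the ovary part alone, 0.22 for the liver part alone and 0.07 for eligible genes. With a pseudocount of 0.1 the counts were 44 higher (29.7%, against 6.61% of eligible genes) and 21 lower (14.2%, against 5.05%).

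In brain 11 of the 148 genes (7.43%) were 2-fold or more higher in the breeding female, against 0.941% of eligible genes, and 2 (1.35%) were lower, against 0.677%. Of the 11 higher genes 7 were in runs and 4 outside, and the 2 lower ones were outside. Of genes that met the ovary part of the rule alone 2.38% were higher and 1.73% lower. Of those that met the liver part alone 2.34% were higher and 2.05% lower. For the 148 the median log2 ratio was 0.00, with 36 genes at equal values, which are genes without a read in either library. With a pseudocount of 0.1 the counts were 38 higher (25.7%, against 2.46%) and 11 lower (7.43%, against 2.08%). In the non-breeding female brain 62 of the genes had no read, in the breeding female brain 43.

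The same pairs were set up in males. In kidney 23 of the 148 genes (15.5%) were 2-fold or more higher in the breeding male, against 1.31% of eligible genes, and 1 was lower (0.792% of eligible genes). Of these 23 genes 19 were among the 66 in runs of neighbouring identifiers and 4 among the 82 outside runs. The male kidney count thus came mostly from the runs. The median log2 ratio was 0.27 for the 148 and 0.01 for eligible genes. In brain 10 genes (6.76%) were higher, against 2.31%, and 1 was lower (0.908% of eligible genes). Of these 10 genes 5 were in runs and 5 outside. The breeding male brain is labelled frontal brain and the non-breeding one brain, so region and class cannot be told apart in that pair. Of genes that met the ovary part of the rule alone 5.83% were higher in kidney and 6.48% in brain. Of those that met the liver part alone the shares were 3.8% and 3.22%. In the ovary part alone 4.75% were lower in kidney and 2.59% in brain, in the liver part alone 1.17% in each. With a pseudocount of 0.1 the male kidney counts were 45 higher (30.4%, against 2.64% of eligible genes) and 15 lower (10.1%, against 1.53%). In male brain they were 45 higher (30.4%, against 4.57%) and 8 lower (5.41%, against 1.85%). Scaling to reads on genes gave 16 in brain, against 3.94% of eligible genes.

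In testis 0 of the 148 genes were 2-fold or more higher in the breeding male, against 0.437% of eligible genes, and 6 (4.05%) were lower, against 1.54%. Of genes that met the ovary part of the rule alone 1.94% were higher and 2.81% lower. Of those that met the liver part alone 0.585% were higher and 2.63% lower. The median log2 ratio was -0.03 for the 148 and for eligible genes. With a pseudocount of 0.1 the counts were 9 higher (6.08%, against 1.22%) and 23 lower (15.5%, against 2.7%). DMR_00237 had the highest ratio, with 5.14 RPKM in the breeding testis and 3.13 in the non-breeding testis, from 40 and 34 reads. DMR_00160 had the lowest, with 3.09 RPKM in the breeding testis and 10.6 in the non-breeding testis, from 22 and 105 reads. In ovary DMR_00160 stood at 124 RPKM in the breeding female and 6.12 in the non-breeding female.

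**Figure D4:**
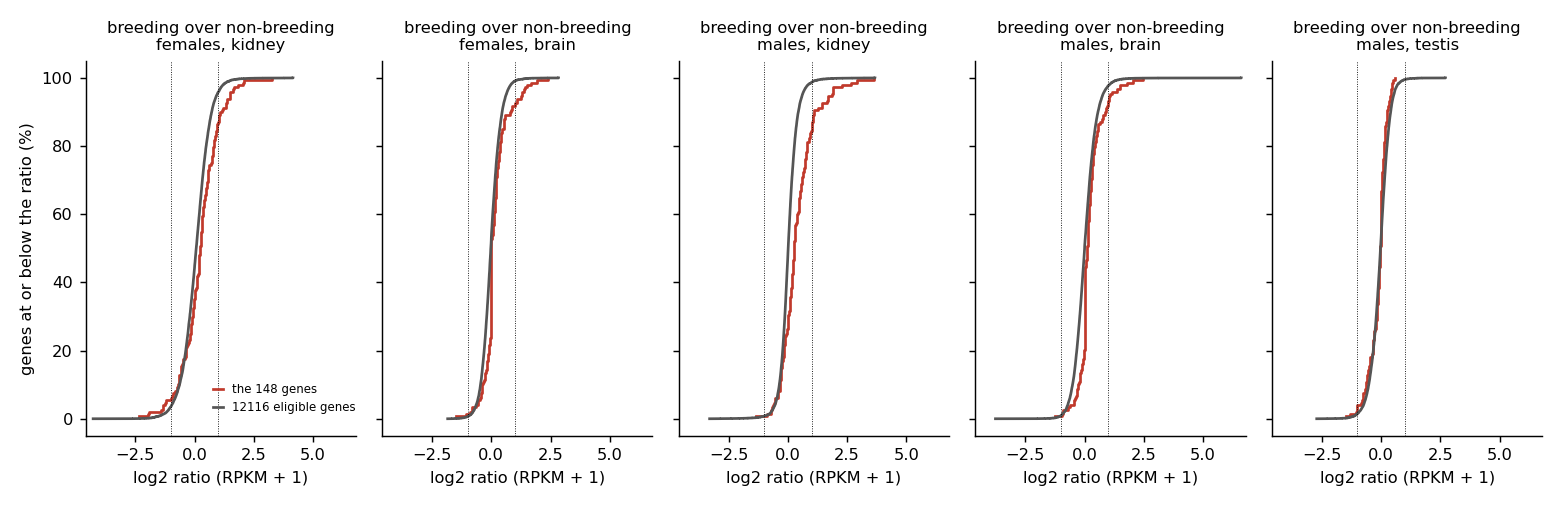
Cumulative share of genes (%) against the log2 ratio (RPKM + 1) of the breeding to the non-breeding library, for females in kidney and brain and males in kidney, brain and testis. Red lines are the 148 genes, grey lines the 12116 eligible genes, and dotted lines mark 2-fold. The red lines run to the right of the grey ones at the upper end in kidney and brain, and in testis no gene of the 148 passes 2-fold.

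In the kidney-only group 15 of the 50 genes (30%) were 2-fold or more higher in the breeding male kidney and 1 was lower. Of the other 82 eligible genes with the same pattern of levels, 4 (4.88%) were higher and 8 (9.76%) lower. In the female kidneys 5 of the 50 (10%) were 2-fold or more higher in the breeder and 9 (18%) lower, and of the other 82 genes 5 (6.1%) were higher and 5 lower. The 82 genes had higher kidney levels, with a median of 7.40 RPKM in the breeding female kidney. The group was drawn on these kidney libraries, and a gene that is 2-fold different on RPKM + 1 has to reach 1 RPKM in one of them, so these counts support nothing beyond themselves. The group held 26 of the 52 short genes and 40 of the 66 genes in runs.

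Of the 148 genes 44 (29.7%) were 2-fold or more higher in the breeder in at least 1 of the 5 pairs, against 7.63% of eligible genes, and 19 (12.8%) were 2-fold or more lower in at least 1, against 6.73%. Both counts include 7 genes that were higher in 1 pair and lower in another. In none of the 5 pairs did 92 genes (62.2%) reach 2-fold in either direction, against 86.7% of eligible genes. Of the 44, 30 were higher in 1 pair, 9 in 2 and 5 in 3.

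The female kidney list of 19 and the female brain list of 11 shared 4 genes (21.1% and 36.4%), which is 2.7% of the 148, against 0.182% of eligible genes higher in both. The female kidney list and the male kidney list of 23 shared 6 (31.6% and 26.1%). For this overlap no share of eligible genes was computed, so whether it exceeds theirs is not known. By any amount, 29.7% of the 148 genes were higher in both tissues of the breeding female, against 28.2% of eligible genes, and 8.11% were lower in both, against 25.5%. In males 44.6% were higher in both, against 31.3%, and 6.76% lower in both, against 29.5%. Genes without a read in a pair count as neither.

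The breeding female kidney was the highest of the 4 kidney libraries for 54 of the 148 genes (36.5%), against 37.1% of eligible genes. The breeding male was highest for 53 (35.8%), against 19.8%. In brain 21 of the 148 genes had no read in any of the 4 libraries. Of the other 127, the breeding female was highest for 48 (37.8%), against 27.5% of eligible genes read there, and the breeding male for 49 (38.6%), against 31.9%. The share for the breeding female was thus near that of eligible genes in kidney and above it in brain.

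A limma fit over the 8 kidney and brain libraries, with tissue and class as terms and 3 residual degrees of freedom, tested these differences. The libraries of a class in the 2 tissues serve as its replicates, and they may come from the same animals. The p-values measure how far the differences between classes varied between the 2 tissues, not the spread between animals. Of the 148 genes 104 had 1 RPKM or more in at least 2 of the libraries and entered the fit of 15479 genes. Between breeding and non-breeding females limma called 0 genes (0% of those tested) at an adjusted p of 0.05, so 0 of the 148. The lowest limma adjusted p among the 148 was 0.296.

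At an unadjusted p under 0.05, 1529 genes (9.88%) passed between the females, and 22 of the 104 in the fit did. Of these 22, 19 were higher in the breeding female (5.63% of genes tested were) and 3 lower. Voom on the recovered reads called 0 genes and gave 14 of the 104 an unadjusted p under 0.05 (13.5%), against 10.8% of genes tested. Without the filter on low values, where all 148 genes entered, 23 were higher in the breeding female at an unadjusted p under 0.05, against 5.17% of genes tested, and 4 were lower, against 3.41%.

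Between breeding and non-breeding males limma called 1 gene (0.00646%), which was not among the 148. The male contrast, and the difference that uses it, include the brain pair with unlike region labels. At an unadjusted p under 0.05, 6.71% of genes passed, and 18 of the 104 in the fit did, 17 of them higher in the breeding male (3.75% of genes tested were). Without the filter 21 of the 148 were higher, against 3.34%, and 1 was lower, against 2.72%. The difference between the female and the male contrast gave 0 called genes (0%). At an unadjusted p under 0.05, 6.92% of genes passed it, and 14 of the 104 in the fit did. Of these 14, 4 had the higher female difference (3.67% of genes tested) and 10 the lower. Without the filter 5 were higher, against 3.67%, and 10 lower, against 2.82%. Voom called 1 gene between the males and 2 in the difference, none among the 148. At an unadjusted p under 0.05 voom passed 21 of the 104 between the males (20.2%), against 8.33% of genes tested, and 14 in the difference (13.5%), against 8.93%.

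Between the breeding female and the mean of the other 3 classes limma called 7 genes (0.0452%), 0 of them among the 148, whose lowest limma adjusted p was 0.0736. At an unadjusted p under 0.05, 19 of the 104 (18.3%) passed, against 18.9% of genes tested. A fit without the non-breeding female kidney or the breeding female brain leaves a class with 1 library. Only effect sizes are given from those fits for this contrast. With all libraries the genes of the 148 in the fit had a median log2 difference of 0.12. It was 0.11 without the non-breeding female kidney and 0.19 without the breeding female brain.

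**Figure D5:**
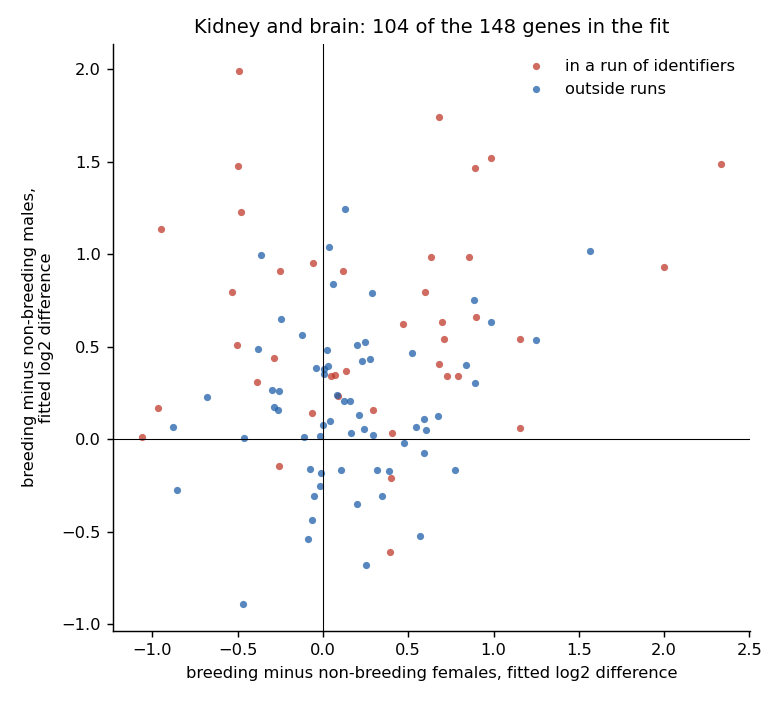
Fitted log2 differences in kidney and brain for the 104 of the 148 genes that entered the fit, breeding minus non-breeding females on the horizontal and breeding minus non-breeding males on the vertical axis. Red points are genes in runs of neighbouring identifiers, blue points the others. The point farthest to the right is DMR_21186 at 2.33, and none of the differences passed the limma threshold.

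The highest fitted female differences with both tissues on the same side belonged to DMR_21186 and DMR_07981. DMR_07981 stood at 201.3 RPKM in the breeding female kidney and 65.4 in the non-breeding female kidney, and at 7.01 RPKM in the breeding female brain and 0.529 in the non-breeding female brain. Its fitted log2 difference was 2.0 (SE 0.24, limma adjusted p = 0.296), higher in the breeder in 2 of 2 female pairs. In males it stood at 139.8 RPKM in the breeding kidney and 85.4 in the non-breeding kidney, and at 4.73 RPKM in the breeding brain and 1.56 in the non-breeding brain. It was thus higher in the breeder in all 4 pairs, and over 13 alternatives its female adjusted p ran from 0.0581 to 0.771.

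DMR_21186, with a coding length of 768 bases, was not read in the non-breeding female liver, kidney and brain and had 1 read in the non-breeding ovary. A count of 0 allows up to 3 reads, or 0.265 RPKM in that liver, 0.228 in that kidney and 0.1995 in that brain. In the breeding female it stood at 292 RPKM in liver, 23.6 in ovary, 8.69 in kidney and 1.61 in brain. It was read in every male library, from 0.147 RPKM in the non-breeding male brain to 13.6 in the breeding male kidney. The fitted female log2 difference was 2.33 (SE 0.61, limma adjusted p = 0.489), which depends on the pseudocount and on 1 library. It was 5.28 with a pseudocount of 0.1, 6.72 with voom and 1.29 without the non-breeding female kidney, and its adjusted p ran from 0.171 to 0.958 over 13 alternatives.

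Of the 148 genes 6 had no read in any of the 4 non-breeding female libraries, 1 had none in the 4 breeding male libraries and 0 had none in the 4 non-breeding male libraries. The rule asked for low values in the non-breeding female liver and ovary but only in the liver of each male class, so these counts cannot be compared. The same counts over eligible genes were not made. The 6 genes stood at 6.42 to 48.6 RPKM in the breeding female liver and at 1.03 to 2.53 in the breeding ovary. All 6 had coding lengths of 243 to 609 bases, and 4 of them were in runs. They include the pair of 363 bases whose values are uncertain as separate measurements.

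The lowest fitted female differences with both tissues on the same side belonged to DMR_15724 and DMR_22237. DMR_15724, with 2088 bases, stood at 19.6 RPKM in the breeding female kidney and 39.3 in the non-breeding female kidney, and at 5.37 RPKM in the breeding female brain and 10.1 in the non-breeding female brain. Its fitted log2 difference was -0.88 (SE 0.24, limma adjusted p = 0.489), lower in the breeder in 2 of 2 female pairs. In liver it stood at 25.9 RPKM in the breeding female and 5.24 in the non-breeding female, and in ovary at 4.65 in the breeding female and 1.31 in the non-breeding female. In the female pairs it thus ran opposite ways in the tissues of the rule and in kidney and brain. In males it stood at 21.0 RPKM in the breeding kidney and 26.5 in the non-breeding kidney. In male brain it was higher in the breeder, at 5.97 RPKM against 4.09.

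DMR_22237 has a coding length of 222 bases and rests on few reads. It had 9 reads in the breeding female kidney and 14 in the non-breeding one, and 1 read in the breeding female brain and 7 in the non-breeding one (fitted log2 difference -0.86, SE 0.33, limma adjusted p = 0.499).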

How the data were processed

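Poly(A) RNA of 16 libraries was extracted with TRIzol, copied from random hexamers and sequenced from both ends, per the labels' protocols. The authors deposited 1 table of RPKM values, and the submitters' processing notes name TopHat 1.3.1. The genome build, the annotation and how reads were counted are each not given in the sources used here. Reads, coding lengths (unit of 3 bases assumed) and library divisors were recovered from the RPKM. All values were within 1.3e-08 of a whole read, for 100% of genes. The genes and groups were chosen with earlier results of these data known. Ratios used RPKM + 1, over the 12116 eligible genes as background. limma 3.58.1 in R 4.3.3 (lmFit, eBayes with trend) tested log2(RPKM + 1), with Benjamini-Hochberg adjustment over all genes tested and a threshold of 0.05. The fit was run on simulated data with independent noise in each library and the same added difference in both tissues. Libraries that share an animal were not simulated, so that run does not cover them. A fold change on this scale understates changes of low genes. Genes named are the 2 with the largest smallest ratio, the 2 highest and 2 lowest fitted female differences with both tissues of the same sign, and the extremes in testis. All other single genes described were chosen after their values were seen. Alternatives were another pseudocount, scalings, filters, voom, and each library left out.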

Additional observations from a re-analysis of the deposited data

How the results depend on the processing

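With a pseudocount of 0.1 the rule found 237 genes, with a 3-fold threshold 64 and with a floor of 5 RPKM 65. Without 1 of the other 3 livers it found 152 to 161, including all 148. With a pseudocount of 0.1, 44 of the 148 were 2-fold or more higher in the breeding female kidney, 38 in the breeding female brain and 9 in the breeding male testis. The other alternatives of these counts, including a minimum of 20 reads chosen after seeing the data, stayed within 1.5 times. The filters shortened the list, however. A mean of 1 RPKM or more left 16 of 93 genes higher in kidney, 10 of 49 in brain and 0 of 61 in testis. With 20 reads or more it was 16 of 102, 11 of 54 and 0 of 81. Shares of eligible genes under these filters were not computed, so a steady count is not a steady share. No alternative called any of the 148 between females, between males or in their difference, and without any 1 library the count stayed at 0 to 0. For the breeding female against the mean of the other 3 classes, the 104 genes in the fit had a median log2 difference of 0.12. It was 0.11 without the non-breeding female kidney and 0.19 without the breeding female brain. At an unadjusted p under 0.05 the 22 of 104 genes between females became 14 with voom (13.5%, against 10.8% of genes tested). Without the filter they became 27 of 148, where 1677 of 19542 genes passed. The 18 of 104 between males became 16 with quantile normalization, where 1164 of 15479 genes passed. The 14 of 104 in the difference became 8 with a pseudocount of 0.1, where 1098 of 15479 genes passed. Some fits without 1 library gave fewer, but they leave a class with 1 library, so these counts are not given. In the fits without 1 library the median log2 difference of the 148 ran from 0.11 to 0.24 between females. It ran from 0.21 to 0.37 between males and from -0.16 to -0.03 in the difference. The causes were not tested. Without the breeding female brain limma called 91 genes between females, none of them among the 148. No paired analysis was possible because each group holds 1 library and the labels give no replicate numbers. A single library a group limits every ratio, and in brain the median of 2 to 5.5 reads limits most of the 148.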
